A study of Mus musculus with 6 samples.

Results

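The nuclear genes that encode the subunits of the mitochondrial respiratory chain and ATP synthase were followed in mouse blastocysts on 6 expression arrays. Members were taken by a rule on gene symbols that used no measured value, but the rule was set with earlier results of these data known. A probeset counted where its only symbol started with Ndufa, Ndufb, Ndufc, Ndufs, Ndufv, Uqcr, Cox4 to Cox8 or Atp5, or was Sdha, Sdhb, Sdhc, Sdhd, Cyc1 or Cycs. The Ndufaf assembly factors and symbols with -ps were left out. This gave 94 of 41345 probesets, which stood for 81 of the 22180 genes that had a probeset with 1 symbol. Of these, 32 belong to complex I, 4 to complex II, 8 to complex III, 17 to complex IV and 17 to complex V. Cycs is the electron carrier, and Ndufa4l2 and Cox7a2l were put in no complex. A further 10 probesets list a member symbol together with another gene and were not used, so that Cox6c, Ndufb2, Ndufb4, Ndufs6 and Uqcr10 are not among the members.

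The respiratory chain passes electrons from NADH through complex I, and from succinate through complex II, to ubiquinone, complex III, cytochrome c and complex IV, which reduces oxygen. Complexes I, III and IV pump protons, and complex V, the ATP synthase, uses the proton gradient to make ATP. Early mouse embryos rely on mitochondrial oxidation of pyruvate until they take up more glucose at the blastocyst stage, and blastocysts in diapause, a reversible arrest before implantation, have low metabolic activity. Several complex IV subunits exist as a ubiquitous form and a form restricted to tissues such as heart, skeletal muscle, lung or testis.

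All blastocysts came from let7g-transgenic mice, so every group carried the transgene of this microRNA. The DOX-7g group held day 7 blastocysts in which let-7 had been induced by DOX in culture, labelled dormant. The Dor-7g group held blastocysts that were dormant in vivo on day 7. The D4-act-7g group held activated blastocysts of day 4. Each group had 2 arrays, and the RNA of 10 blastocysts was used. Against D4-act-7g, the DOX-7g embryos differ in age, culture, DOX and let-7 induction together, and the Dor-7g embryos in age and dormancy together. The effects of these differences cannot be told apart. The labels do not state whether both arrays of a group hold separate mice or separate pools, and the p-values therefore cover only the spread between arrays.

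Levels are the deposited log2 expression values, and a change is a difference of group means in log2 units. Replicate 1 of Dor-7g had the highest median level, 4.87, with 4.62 to 4.67 on the other 5 arrays. Across probesets, which are not independent replicates, the 2 arrays of a group correlated at r = 0.969 in DOX-7g, 0.919 in Dor-7g and 0.978 in D4-act-7g. Of 12 blastocyst markers, 9 were at or above the array median on all 6 arrays. Among them were the trophectoderm genes Krt8, Krt18, Cdx2 and Gata3 and the inner cell mass genes Pou5f1 and Nanog, as well as Gata6 and Sox17. Of the 12, only Sox2, another inner cell mass gene, was below the array median on all 6. RNA of a whole blastocyst cannot tell fewer cells of a type apart from less RNA per cell.

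Most respiratory chain genes, like most of all genes tested, differed little between the groups. Among the members, the largest differences lay in tissue-restricted isoforms of complex IV. Of the 81 genes, 80 passed the filter on dim genes, which required at least 2 arrays at or above the array median. The exception was Cox7b2, with 1 such array. Changes were tested in limma with p-values adjusted over all 14020 genes tested and a threshold of 0.05.

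In DOX-7g versus D4-act-7g, 1 of 80 genes passed, Cox6b2, which was higher, against 0.956% of all genes tested. At an unadjusted p under 0.05, 5 of 80 passed, 3 higher and 2 lower, beside 11.0% of all genes tested. A change of at least 1 log2 unit was seen for 3 of 80, Cox6b2, Cox6a2 and Cox7a1, beside 5.96% of all genes tested. The 81 members had a median change of 0.065, beside -0.054 over all genes tested, and 71 of them (87.7%) had a change of less than 0.5 in size, beside 81.3% of all genes tested.

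Between Dor-7g and D4-act-7g, 1 of 80 members passed, Cox8b, which was higher, against 0.984% of all genes tested. At an unadjusted p under 0.05, 16 of 80 passed, 4 higher and 12 lower, beside 14.3% of all genes tested. Over all genes tested that rule gave 763 higher and 1235 lower. A change of at least 1 log2 unit was seen for 6 of 80, beside 8.82% of all genes tested. These were Cox8b and Cox6b2, which were higher, and Atp5d, Cox6a2, Cox7a1 and Ndufs8, which were lower. The median change of the members was -0.022, beside 0.061 over all genes tested, and it was 0.033 after a second quantile normalization and -0.15 after each array was centred on its median. Within 0.5 log2 units lay 59 of 81 members (72.8%), beside 75.8% of all genes tested.

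In DOX-7g versus Dor-7g, 2 of 80 genes passed, Cox6a2, which was higher in DOX-7g, and Cox8b, which was lower, against 1.16% of all genes tested. At an unadjusted p under 0.05, 13 of 80 passed, 11 higher and 2 lower, beside 11.6% of all genes tested, of which 849 were higher and 775 lower. A change of at least 1 log2 unit was seen for 8 of 80, 7 higher and 1 lower, beside 7.18% of all genes tested. The median change of the members was 0.072, beside -0.108 over all genes tested. It was 0.008, beside -0.05, after a second quantile normalization, and 0.203, beside 0.023, after centring. In each comparison the share of members past the adjusted threshold came to 1 or 2 genes and was near that of all genes. All 4 calls missed the threshold after a second quantile normalization, with limma's adjusted p = 0.051 for Cox6b2, 0.0501 for Cox6a2, and 0.058 and 0.0592 for Cox8b in Dor-7g versus D4-act-7g and DOX-7g versus Dor-7g. The 3 comparisons share arrays pairwise, so their values for a gene are set side by side and not counted as separate support.

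**Figure D1:**
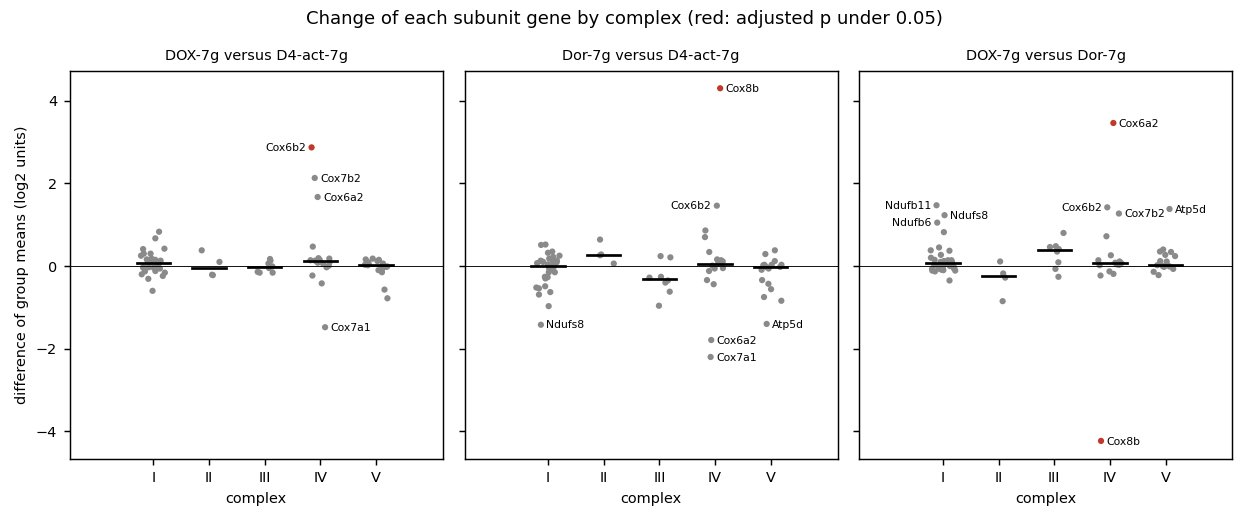
Change of each member gene of complexes I to V in the 3 comparisons, as a difference of group means in log2 units; each point is a gene, black bars are medians over the genes of a complex, and red points passed limma's adjusted p threshold of 0.05. Most points lie near 0, and the points farthest from it are complex IV isoforms, with Cox8b at 4.30 in Dor-7g versus D4-act-7g and Cox6a2 at 3.46 in DOX-7g versus Dor-7g.

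Cox8b encodes the form of subunit 8 found in rodent heart, skeletal muscle and brown fat, and it was well above the array median on the Dor-7g arrays only. Its log2 level was 4.26 and 4.76 in DOX-7g, 9.62 and 7.88 in Dor-7g, and 4.35 and 4.54 in D4-act-7g. Both Dor-7g arrays lay far above the other 4, which were near the array median and below or just above it. The mean was 8.75 ± 1.23 in Dor-7g and 4.45 ± 0.13 in D4-act-7g (SD, n = 2 arrays each). The difference of 4.30 ± 0.56 (SE) passed the threshold (limma, adjusted p = 0.0359). DOX-7g differed from Dor-7g by -4.23 ± 0.56 (limma, adjusted p = 0.0337) and from D4-act-7g by 0.06 ± 0.56 (limma, adjusted p = 0.991). Cox8b was at or above the array median on 3 of 6 arrays, both of Dor-7g and DOX-7g replicate 2. It passed the filter through the group in which it is high, so that its call is given as a description and does not add support. Since levels near the array median may be background, differences from them may be compressed. The difference between Dor-7g and D4-act-7g held without Dor-7g replicate 1 (3.43, limma adjusted p = 0.0144) and without Dor-7g replicate 2 (5.17, limma adjusted p = 0.00247). It missed the threshold without D4-act-7g replicate 1 (4.20, limma adjusted p = 0.263), without D4-act-7g replicate 2 (4.39, limma adjusted p = 0.206) and without either DOX-7g array (4.30, limma adjusted p = 0.0915). DOX-7g against Dor-7g likewise missed it without either D4-act-7g array (-4.23, limma adjusted p = 0.102), without DOX-7g replicate 1 (-3.99, limma adjusted p = 0.21) and without DOX-7g replicate 2 (-4.48, limma adjusted p = 0.147). When an array was left out, the lone array of its group was taken to vary like the other groups.

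Markers of striated muscle and brown fat were read beside Cox8b. Mb, the muscle oxygen store myoglobin, stood at 7.13 and 7.84 in DOX-7g, 8.35 and 9.66 in Dor-7g, and 6.86 and 6.13 in D4-act-7g, a change of 2.50 ± 0.51 in Dor-7g versus D4-act-7g that missed the threshold (limma, adjusted p = 0.114). Ckm, the muscle creatine kinase gene, lay the other way, at 5.25 and 6.75 in DOX-7g, 6.54 and 5.70 in Dor-7g, and 8.02 and 6.99 in D4-act-7g, and its change of -1.38 in Dor-7g versus D4-act-7g missed the threshold (limma, adjusted p = 0.384). The summed linear signal of the 13 muscle markers was 1332 and 1470 in DOX-7g, 1484 and 2273 in Dor-7g, and 1135 and 901 in D4-act-7g. None of the 10 of these that were tested passed the adjusted threshold in Dor-7g versus D4-act-7g. An unadjusted p under 0.05 was found for 4 of the 10, beside 14.3% of all genes tested. Of the 13 muscle markers, 10 were at or above the array median on all 6 arrays. The sarcomere genes Actc1, Myh6 and Ttn were below it on all 6. Beside Mb, Myl7, Des and Acta1 had changes of 1.21, 1.06 and 0.79 in Dor-7g versus D4-act-7g (limma, adjusted p = 0.306, 0.199 and 0.287). The list's median change there was 0.33, and Ckm, Actc1 and Tnni3 had negative changes. The uncoupling protein gene Ucp1 was at 5.35 on Dor-7g replicate 2 and between 4.06 and 4.40 on the other arrays. The 8 brown fat markers summed to 473 and 1014 in DOX-7g, 550 and 618 in Dor-7g, and 2042 and 1234 in D4-act-7g, and this list includes Cox7a1 and the fatty acid carrier gene Fabp4, whose changes were -2.20 and -3.18 in Dor-7g versus D4-act-7g (limma, adjusted p = 0.212 and 0.215). The brown fat list's median change in Dor-7g versus D4-act-7g was 0.13. Its other markers, Cidea, Ucp1, Prdm16, Adipoq, Elovl3 and Plin1, had changes of 0.72, 0.65, 0.23, 0.16, 0.11 and 0.08 there. Of these, Ucp1, Adipoq and Elovl3 did not pass the filter on dim genes. The part of muscle or fat RNA in the Cox8b signal was not tested beyond these values.

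Cox6a2 encodes the heart and skeletal muscle form of subunit 6A. Its log2 level was 8.71 and 9.88 in DOX-7g, 5.94 and 5.73 in Dor-7g, and 8.06 and 7.19 in D4-act-7g. The 3 groups did not overlap, with DOX-7g highest and Dor-7g lowest. DOX-7g exceeded Dor-7g by 3.46 ± 0.46 (SE, n = 2 each; limma, adjusted p = 0.0353). The changes against D4-act-7g, 1.67 ± 0.46 in DOX-7g and -1.79 ± 0.46 in Dor-7g, missed the threshold (limma, adjusted p = 0.247 and 0.176). The difference between DOX-7g and Dor-7g held without DOX-7g replicate 1 (4.05, limma adjusted p = 0.0453) and without Dor-7g replicate 2 (3.36, limma adjusted p = 0.0462). It missed the threshold without DOX-7g replicate 2 (2.87, limma adjusted p = 0.113), without Dor-7g replicate 1 (3.56, limma adjusted p = 0.0877) without either D4-act-7g array (3.46, limma adjusted p = 0.0676) and with array weights (3.46, limma adjusted p = 0.148). Cox6a2, a muscle gene like Cox8b, was thus lowest in the group in which Cox8b was highest.

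Cox6b2 encodes the testis form of subunit 6B. Its log2 level was 11.46 and 11.76 in DOX-7g, 10.19 and 10.20 in Dor-7g, and 9.26 and 8.21 in D4-act-7g. The groups did not overlap, and both dormant groups lay above D4-act-7g. DOX-7g exceeded D4-act-7g by 2.87 ± 0.36 (SE, n = 2 each; limma, adjusted p = 0.0337). The changes of 1.46 ± 0.36 in Dor-7g versus D4-act-7g (limma, adjusted p = 0.163) and of 1.42 ± 0.36 in DOX-7g versus Dor-7g (limma, adjusted p = 0.219) missed the threshold. The first difference held without either Dor-7g array (2.87, limma adjusted p = 0.0417) and without D4-act-7g replicate 1 (3.40, limma adjusted p = 0.0276). It missed the threshold without D4-act-7g replicate 2 (2.35, limma adjusted p = 0.0854), without DOX-7g replicate 1 (3.02, limma adjusted p = 0.148) without DOX-7g replicate 2 (2.72, limma adjusted p = 0.195) and with each array centred on its median (2.88, limma adjusted p = 0.0529). The change in Dor-7g versus D4-act-7g was 0.93 without D4-act-7g replicate 2. Among blood and immune markers, S100a9, a neutrophil gene chosen here after its values were seen, had the same order of groups, at 9.55 on both DOX-7g arrays, 7.10 and 6.41 in Dor-7g, and 4.49 and 4.6 in D4-act-7g. No other of the 10 markers matched had that order without overlap of the groups. Ly6g, a neutrophil surface gene, was at 7.41 and 7.39 in DOX-7g, 3.75 and 4.25 in Dor-7g, and 3.65 and 4.08 in D4-act-7g, so that Dor-7g and D4-act-7g overlapped. S100a8, the partner of S100a9, was at 10.91 and 10.12 in DOX-7g, 2.81 and 7.18 in Dor-7g, and 3.28 and 3.16 in D4-act-7g. S100a9 passed in DOX-7g and in Dor-7g against D4-act-7g and between both dormant groups (limma, adjusted p = 0.00112, 0.0274 and 0.00988). Ly6g passed in DOX-7g against D4-act-7g and against Dor-7g (limma, adjusted p = 0.00434 and 0.00422). S100a9 was at or above the array median in the dormant groups only, and Ly6g in DOX-7g only. Their calls are thus given as a description. S100a8 missed the threshold in each comparison. The macrophage genes Cd68 and Csf1r had changes of -1.55 and -0.26 in DOX-7g versus D4-act-7g, and both missed the threshold (limma, adjusted p = 0.594 and 0.739). Lyz2 had a change of 0.80 there (limma, adjusted p = 0.472). Of the 10 blood and immune markers matched, 3 were below the array median on all 6 arrays. These were Ptprc, Itgam and Adgre1, with changes of 0.15, -0.01 and -0.29 in DOX-7g versus D4-act-7g. The summed linear signal of all 10 was 3164 and 2315 in DOX-7g, 464 and 973 in Dor-7g, and 435 and 848 in D4-act-7g. This sum includes S100a8 and S100a9 and is not a separate observation. The part of blood cells in the Cox6b2 signal was not tested.

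Cox7a1, the heart and skeletal muscle form of subunit 7A, was highest in D4-act-7g but passed in no comparison. It stood at 7.75 and 9.43 in DOX-7g, 7.75 and 7.98 in Dor-7g, and 10.66 and 9.48 in D4-act-7g. Both dormant groups lay below D4-act-7g on every array, with changes of -1.48 ± 0.63 in DOX-7g and -2.20 ± 0.63 in Dor-7g (SE, n = 2 each; limma, adjusted p = 0.48 and 0.212). The 2 DOX-7g arrays were 1.69 log2 units apart. Cox4i2, the lung form of subunit 4, lay between 5.30 and 5.56 on all 6 arrays and its groups overlapped in both comparisons with D4-act-7g. Of the testis forms, Cox8c scattered between 3.35 and 5.79 without order by group, and Cox7b2 stood at 6.51 and 3.49 in DOX-7g, 4.04 and 3.43 in Dor-7g, and 3.02 and 2.73 in D4-act-7g. The first DOX-7g array alone held Cox7b2 above its array median.

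The ubiquitous counterparts of these isoforms were bright on every array and nearly level. Cox6a1 stood at 13.77 and 13.76 in DOX-7g, 13.66 and 13.72 in Dor-7g, and 13.75 and 13.76 in D4-act-7g, and Cox8a and Cox7a2 were likewise within 0.2 log2 units over all 6 arrays. Cox4i1, Cox6b1 and Cox7b had changes of 0.19, 0.15 and 0.18 in DOX-7g versus D4-act-7g and of 0.14, 0.34 and 0.16 in Dor-7g versus D4-act-7g. None of the 6 counterparts passed in any comparison, and none had an unadjusted p under 0.05. Different probesets bind with different strength, so the levels of an isoform and its counterpart are not set against each other.

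**Figure D2:**
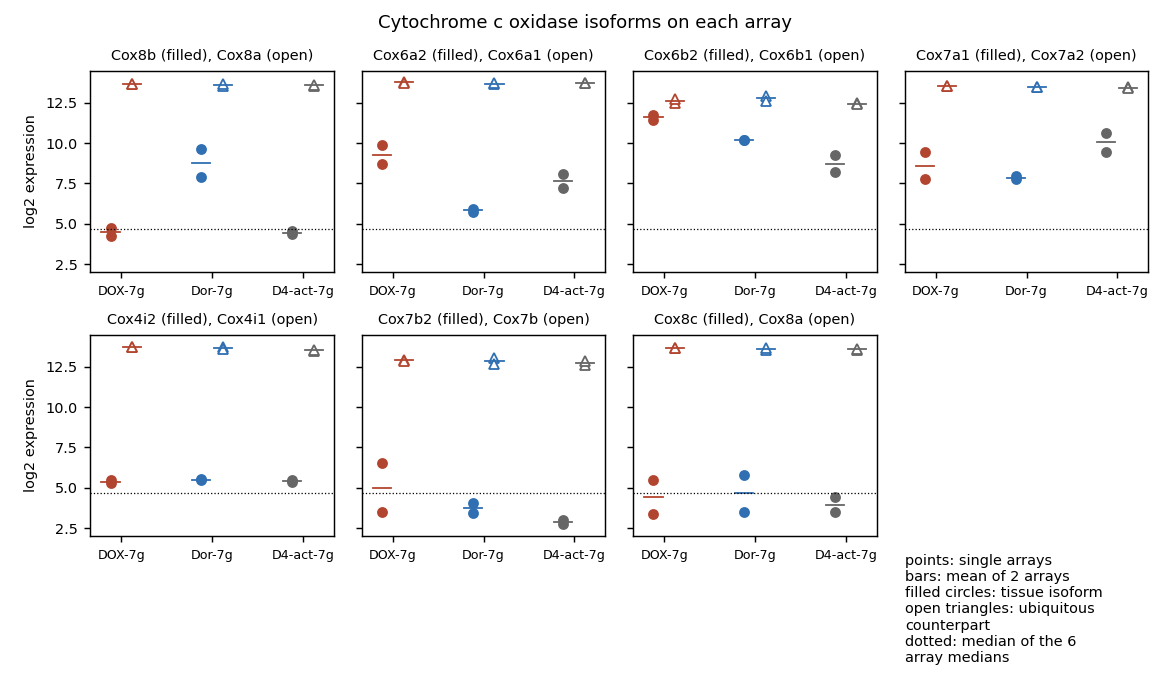
Log2 level of 7 tissue isoforms of complex IV (filled circles) and their ubiquitous counterparts (open triangles) on each array of DOX-7g, Dor-7g and D4-act-7g; bars are means of 2 arrays and the dotted line is the median of the 6 array medians. Cox8b stands at 9.62 and 7.88 in Dor-7g only, Cox6a2 is lowest in Dor-7g, Cox6b2 is highest in DOX-7g, and the counterparts stay level.

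Promoter sequences of Cox8b and Cox6b2 were set beside those of their counterparts Cox8a and Cox6b1. The promoter of Cox6a1 is shown without that of Cox6a2, which was not in the table used. Each line below gives 180 bases before to 30 bases after the annotated start, 5′ to 3′ on the gene's strand, which is minus for all 5, from a RefSeq promoter table of build GRCm38.p6. Capitals mark TATAAA in Cox8b, at chr7:140900417-140900626, the reverse complement of CCGGAAGT, an ETS-type site, in Cox8a, at chr19:7217587-7217796, and 2 overlapping copies of GCGCATGC, a site of the factor NRF1, in Cox6a1, at chr5:115348929-115349138. Cox6b2, at chr7:4753065-4753274, and Cox6b1, at chr7:30626085-30626294, had no match to the motifs searched in the stretch shown.
Cox8b: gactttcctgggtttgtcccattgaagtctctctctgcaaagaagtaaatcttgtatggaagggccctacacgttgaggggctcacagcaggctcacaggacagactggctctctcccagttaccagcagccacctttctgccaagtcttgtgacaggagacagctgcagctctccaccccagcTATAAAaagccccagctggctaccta
Cox8a: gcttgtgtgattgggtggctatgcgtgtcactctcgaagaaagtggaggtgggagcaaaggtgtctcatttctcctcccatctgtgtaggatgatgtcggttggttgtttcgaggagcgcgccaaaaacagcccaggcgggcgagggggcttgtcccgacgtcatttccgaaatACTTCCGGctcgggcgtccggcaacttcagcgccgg
Cox6b2: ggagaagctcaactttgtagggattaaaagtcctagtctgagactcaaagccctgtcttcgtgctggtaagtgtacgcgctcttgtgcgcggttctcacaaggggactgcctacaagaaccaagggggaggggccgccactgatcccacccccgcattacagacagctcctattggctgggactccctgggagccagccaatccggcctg
Cox6b1: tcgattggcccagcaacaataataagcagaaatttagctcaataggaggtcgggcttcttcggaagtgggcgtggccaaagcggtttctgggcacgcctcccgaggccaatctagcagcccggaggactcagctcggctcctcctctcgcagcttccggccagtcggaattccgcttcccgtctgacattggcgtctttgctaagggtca
Cox6a1: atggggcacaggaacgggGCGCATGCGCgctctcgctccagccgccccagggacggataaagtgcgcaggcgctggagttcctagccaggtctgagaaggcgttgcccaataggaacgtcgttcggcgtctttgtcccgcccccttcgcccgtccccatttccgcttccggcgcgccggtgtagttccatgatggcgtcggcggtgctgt

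Over the window of 250 bases before to 50 after the start, 66 of the 81 members were in the table. Both strands were searched for GCGCATGC (NRF1), CCGGAAGT (ETS) and AANATGGC (YY1), and, added after the promoters had been seen, TATAAA. No matches of different motifs overlapped in a member. GCGCATGC was in 11 of 66 member promoters (16.7%), beside 3.05% of 27025 genes of the table and 4.92% of the 10881 genes that were also tested on the arrays. AANATGGC was in 16 of 66 (24.2%), beside 6.96% and 8.38%, and 11 of those 16 were among the 29 complex I promoters. CCGGAAGT was in 5 of 66 (7.58%), beside 4.31% and 7.36%, and TATAAA in 8 of 66 (12.1%), beside 15.7% and 10.1%. Of the 7 tissue isoforms, 4 were in the table. None of these 4 held the first 3 motifs, and Cox7b2 and Cox8b held TATAAA. In Cox8b the match lay 4 bases after the annotated start and not before it. A match is a description of the letters and not of binding.

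The 32 complex I genes had a median change of 0.085 in DOX-7g versus D4-act-7g and of -0.009 in Dor-7g versus D4-act-7g, and none passed the threshold in any comparison. The Dor-7g median was 0.108 after a second quantile normalization and -0.137 after centring, so its direction depended on the scaling. Of the core subunits, which carry electrons to ubiquinone, 6 were measured. Ndufs8, which binds iron-sulfur clusters, stood at 11.31 and 11.36 in DOX-7g, 9.43 and 10.79 in Dor-7g, and 11.55 and 11.52 in D4-act-7g. Both Dor-7g arrays lay below the rest, by unequal amounts, and the change in Dor-7g versus D4-act-7g was -1.42 ± 0.43 (SE, n = 2 each; limma, adjusted p = 0.227). The other 5 core genes, Ndufs1, Ndufs3, Ndufs7, Ndufv1 and Ndufv2, had changes between -0.24 and 0.09 in DOX-7g and between -0.30 and -0.01 in Dor-7g, both against D4-act-7g. Ndufs1 was dim, at 4.79 to 5.05 on the 6 arrays.

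Among accessory subunits of complex I, Ndufa11 stood at 13.18 and 13.24 in DOX-7g, 12.29 and 12.50 in Dor-7g, and 13.07 and 13.10 in D4-act-7g. Both Dor-7g arrays lay below the other 4, a change of -0.69 ± 0.17 in Dor-7g versus D4-act-7g and of 0.82 ± 0.17 in DOX-7g versus Dor-7g (SE, n = 2 each; limma, adjusted p = 0.169 and 0.155). A second Ndufa11 probeset differed the same way, by -1.07 and 1.49. Ndufb11, a small membrane subunit, was at 6.11 and 7.00 in DOX-7g, 4.33 and 5.84 in Dor-7g, and 5.82 and 5.62 in D4-act-7g. Its 2 Dor-7g arrays lay on both sides of the D4-act-7g arrays. Ndufb6 was at 12.31 and 12.08 in DOX-7g, 10.45 and 11.84 in Dor-7g, and 11.99 and 12.23 in D4-act-7g. On both Dor-7g arrays it lay below the other 4, by unequal amounts. Its changes were -0.97 ± 0.45 in Dor-7g versus D4-act-7g and 1.05 ± 0.45 in DOX-7g versus Dor-7g (limma, adjusted p = 0.401 and 0.445). Ndufs4, needed for a stable complex I, had changes of 0.67 ± 0.25 in DOX-7g and 0.52 ± 0.25 in Dor-7g against D4-act-7g (SE, n = 2 each; limma, adjusted p = 0.42 and 0.417). Ndufa2, the member of complex I with the highest mean, had changes of 0.15 and 0.09.

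Complex II was measured by all 4 subunit genes, and none passed. Its median change was 0.27 in Dor-7g versus D4-act-7g and -0.057 in DOX-7g versus D4-act-7g. The first of these was -0.078 on Dor-7g replicate 1 and 0.622 on Dor-7g replicate 2, so 1 array set it. Sdhd, a membrane anchor of the complex, stood at 6.65 and 6.37 in DOX-7g, 7.23 and 7.48 in Dor-7g, and 6.75 and 6.70 in D4-act-7g. Both Dor-7g arrays were above the other 4, with a change of 0.64 ± 0.19 in Dor-7g versus D4-act-7g and of -0.85 ± 0.19 in DOX-7g versus Dor-7g (SE, n = 2 each; limma, adjusted p = 0.232 and 0.183). The other anchor gene, Sdhc, overlapped between all groups, at 5.63 and 7.12 on the Dor-7g arrays. Sdhb, the iron-sulfur subunit and the brightest of the 4, stood at 10.52 and 10.54 in DOX-7g, 10.65 and 10.77 in Dor-7g, and 10.42 and 10.44 in D4-act-7g. As for Sdhd, both Dor-7g arrays were above the other 4, with a smaller change of 0.28 ± 0.16 against D4-act-7g (SE, n = 2 each; limma, adjusted p = 0.503). Sdha, the flavoprotein, had changes of -0.22 in DOX-7g and 0.06 in Dor-7g against D4-act-7g.

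Complex III had the lowest median of the 5 complexes in Dor-7g versus D4-act-7g, at -0.319, and 6 of its 8 genes were lower there. That median was -0.333 on Dor-7g replicate 1 and -0.29 on Dor-7g replicate 2, and it was -0.227 after a second quantile normalization and -0.447 after centring. In DOX-7g versus D4-act-7g it was -0.029, and in DOX-7g versus Dor-7g 0.378. No gene of the complex passed the threshold in any comparison. Cyc1, the heme protein cytochrome c1, stood at 12.37 and 12.25 in DOX-7g, 11.08 and 11.95 in Dor-7g, and 12.48 and 12.47 in D4-act-7g. Both Dor-7g arrays were the lowest, with a change of -0.96 ± 0.30 in Dor-7g versus D4-act-7g (SE, n = 2 each; limma, adjusted p = 0.241). Uqcrc1, a core protein of the complex, stood at 11.53 and 11.58 in DOX-7g, 10.89 and 11.26 in Dor-7g, and 11.70 and 11.70 in D4-act-7g. Dor-7g was again lowest, with a change of -0.62 ± 0.19 against D4-act-7g (SE, n = 2 each; limma, adjusted p = 0.238). Uqcrfs1, the Rieske iron-sulfur protein, had a change of -0.40 there, while Uqcrb and Uqcrh, both accessory subunits, had changes of 0.24 and 0.21.

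By the brightest probeset of each gene, the 10 complex IV genes other than tissue isoforms all had changes of less than 0.5 log2 units in size in each of the 3 comparisons. A second, dimmer probeset of Cox5b had a change of -0.67 in Dor-7g versus D4-act-7g, and a second probeset of Cox7b had changes of -0.84 there and of 0.91 in DOX-7g versus Dor-7g. The second Cox7b probeset was at 6.61 on Dor-7g replicate 1 and 8.72 on replicate 2. By the brightest probesets, their median change was 0.114 in DOX-7g versus D4-act-7g and -0.017 in Dor-7g versus D4-act-7g, and the widest was that of Cox7c, at -0.42 and -0.44. The 7 tissue isoforms had median absolute changes of 1.48 in DOX-7g and 1.46 in Dor-7g against D4-act-7g. These 7 include Cox7b2, which failed the filter on dim genes, and their arrays were a median of 1.17 apart in DOX-7g, 0.23 in Dor-7g and 0.87 in D4-act-7g. Ndufa4, once counted in complex I, was at 13.59 and 13.43 in DOX-7g, 13.21 and 13.60 in Dor-7g, and 13.72 and 13.77 in D4-act-7g.

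The 17 ATP synthase genes had medians of 0.017 in DOX-7g and -0.029 in Dor-7g against D4-act-7g, and none passed in any comparison. After a second quantile normalization these were -0.007 and 0.026. The gene nearest the threshold was Atp5d, the delta subunit of the rotor stalk. It stood at 10.87 and 10.52 in DOX-7g, 9.55 and 9.08 in Dor-7g, and 10.69 and 10.74 in D4-act-7g. Both Dor-7g arrays lay below the other 4, with a change of -1.40 ± 0.23 in Dor-7g versus D4-act-7g and of 1.38 ± 0.23 in DOX-7g versus Dor-7g (SE, n = 2 each; limma, adjusted p = 0.0727 and 0.0834). With each array centred on its median, Atp5d passed in both. A second Atp5d probeset differed in the same direction by less, at -0.47 and 0.46.

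Of the ATP synthase genes for the proton-carrying ring subunit c, Atp5g1 was at 5.15 and 5.50 in DOX-7g, 5.12 and 4.98 in Dor-7g, and 5.90 and 5.89 in D4-act-7g. Both dormant groups were lower on every array, with changes of -0.57 ± 0.19 in DOX-7g and -0.84 ± 0.19 in Dor-7g (SE, n = 2 each; limma, adjusted p = 0.361 and 0.147). Atp5g2 and Atp5g3, which encode the same mature protein as Atp5g1, had changes of 0.02 and -0.01 in DOX-7g and 0.03 and -0.34 in Dor-7g. Atp5j2, a membrane subunit, was lower in both dormant groups as well, with changes of -0.78 ± 0.21 in DOX-7g and -0.75 ± 0.21 in Dor-7g (SE, n = 2 each; limma, adjusted p = 0.24 and 0.206). Atp5a1, the catalytic part's alpha subunit, had changes of -0.15 and -0.56, and its partner Atp5b, the beta subunit, of -0.08 and -0.43 in DOX-7g and Dor-7g against D4-act-7g. Atp5e, the epsilon subunit and the member of complex V with the highest mean, lay between 13.57 and 13.68 on all 6 arrays.

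Cycs, the cytochrome c that links complexes III and IV, stood at 13 and 12.96 in DOX-7g, 12.70 and 12.61 in Dor-7g, and 12.82 and 12.95 in D4-act-7g, and passed in no comparison. Cycs had 5 probesets, and 2 of these held identical values. Cox7a2l, which helps complexes III and IV join into supercomplexes, stood at 11.07 and 11.19 in DOX-7g, 9.67 and 10.30 in Dor-7g, and 10.62 and 10.61 in D4-act-7g. DOX-7g lay above and Dor-7g below D4-act-7g on every array, with changes of 0.52 ± 0.25 and -0.63 ± 0.25 and a difference between both dormant groups of 1.15 ± 0.25 (SE, n = 2 each; limma, adjusted p = 0.551, 0.333 and 0.159). Ndufa4l2, a paralog of Ndufa4 known as a target of hypoxia signalling, had changes of -0.28 and -0.16.

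**Figure D3:**
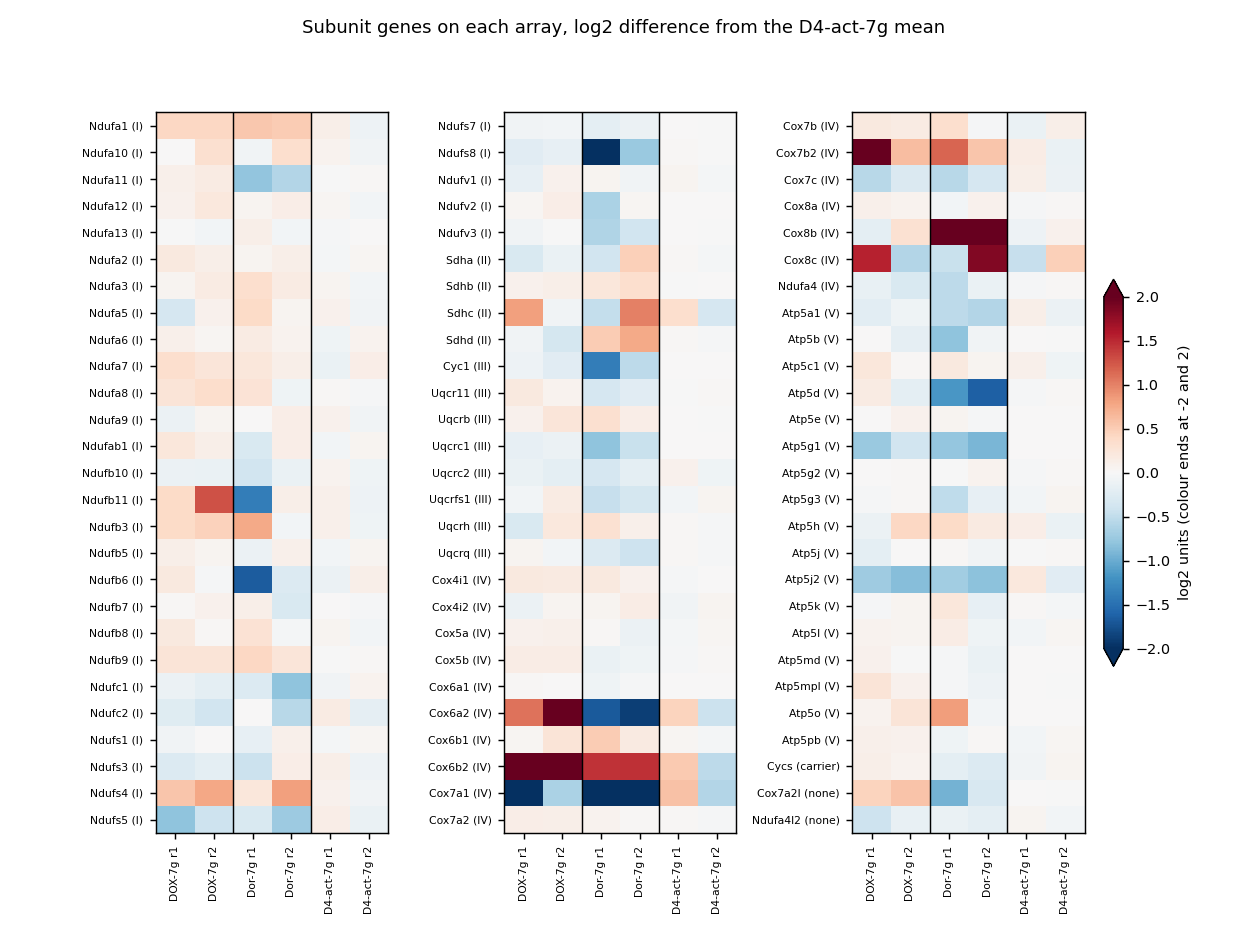
Log2 difference of each of the 81 member genes from its D4-act-7g mean on each array, with the complex in brackets; red is higher, blue is lower, colours end at -2 and 2, and vertical lines part DOX-7g, Dor-7g and D4-act-7g. Most rows are pale, Cox8b is dark red in Dor-7g only, Cox6b2 is red in both dormant groups, and Ndufs8, Ndufb6 and Ndufb11 are darker on Dor-7g replicate 1 than on replicate 2.

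Arrays of the same group differed more in Dor-7g than in the other groups. The median absolute difference between the 2 arrays, over the 81 members, was 0.12 log2 units in DOX-7g, 0.21 in Dor-7g and 0.09 in D4-act-7g, beside 0.20, 0.36 and 0.17 over all genes tested. More than 0.5 apart were 8 of 81 genes in DOX-7g, 18 in Dor-7g and 5 in D4-act-7g. The Dor-7g share was 22.2% of the members, beside 35.1% of all genes tested. Of those 18, 12 were lower on Dor-7g replicate 1, among them Ndufb11, Sdhc, Ndufb6 and Ndufs8, and over all genes tested 2162 of 4921 were. The uterine epithelium markers lay a median of 0.58 above the D4-act-7g mean on Dor-7g replicate 1 and 0.09 on Dor-7g replicate 2. On Dor-7g replicate 1 the striated muscle, uterine stroma and brown fat lists lay 0.63, 0.42 and 0.29 above it as well. The blastocyst and blood and immune lists lay 0.13 and 0.06 above it there, and all genes 0.174. The uterine stroma gene Dcn was at 9.29 on Dor-7g replicate 2 and between 3.67 and 4.22 on the other 5 arrays. The 9 uterine stroma markers matched had a summed linear signal of 307 and 361 in DOX-7g, 386 and 986 in Dor-7g, and 287 and 278 in D4-act-7g. This sum includes Dcn and is not a separate observation. Of the rest, Col1a1, Col1a2, Col3a1, Pdgfra and Hoxa10 were lower on Dor-7g replicate 2 than on replicate 1, and Lum, Des and Hand2 were higher. The part of uterine RNA in the differences between the Dor-7g arrays was not tested. Without Dor-7g replicate 2, 6 members passed between Dor-7g and D4-act-7g, which were Cox8b, higher, and, lower, Atp5d, Cox7a2l, Cyc1, Ndufb6 and Ndufs8, and 8 passed in DOX-7g versus Dor-7g. In the same fits 1172 and 880 of all genes passed, beside 138 and 163 with all 6 arrays. Without Dor-7g replicate 1, Cox8b had changes of 3.43 in Dor-7g versus D4-act-7g and -3.36 in DOX-7g versus Dor-7g. Those of Cox6a2 were -1.89 and 3.56.

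**Figure D4:**
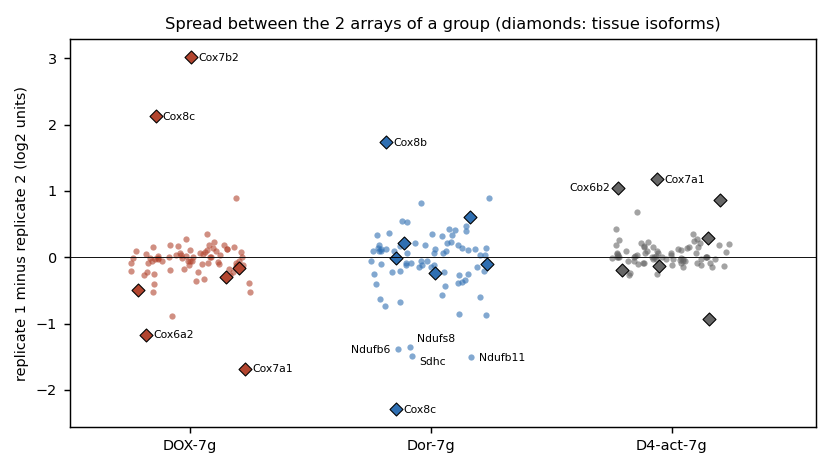
Difference between replicate 1 and replicate 2 of each group in log2 units, one point per member gene, with the tissue isoforms as diamonds and genes over 1 named. The Dor-7g points spread most widely, with 18 of 81 more than 0.5 from 0, and the isoforms hold the widest values of DOX-7g and D4-act-7g.

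Many members were among the brightest genes on the arrays. A mean of at least 13 was reached by 18 of 80 members (22.5%) and by 92 of 14020 genes tested (0.656%), where the 99th percentile of all values was 12.53 and the highest value 14.18. The 18 bright members had a median absolute change of 0.09 in DOX-7g and 0.07 in Dor-7g against D4-act-7g, and all 92 bright genes of 0.08 and 0.08. Signals near the top of the range can be compressed, and this was not tested here.

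Genes that build the chain or feed it were read from 6 further lists, and no gene of these lists passed the threshold in any comparison. Of 14 complex I assembly factors, 5 had an unadjusted p under 0.05 in Dor-7g versus D4-act-7g, beside 14.3% of all genes tested, and the smallest p was that of Ndufaf8, at 8.55 and 8.67 in DOX-7g, 8.31 and 8.24 in Dor-7g, and 9.47 and 9.22 in D4-act-7g. Both dormant groups were below D4-act-7g, with changes of -0.74 ± 0.18 in DOX-7g and -1.07 ± 0.18 in Dor-7g (SE, n = 2 each; limma, adjusted p = 0.198 and 0.0774). The list's median change was -0.17 in DOX-7g and -0.30 in Dor-7g. Of 10 assembly factors of complexes II and III, 3 had an unadjusted p under 0.05 in Dor-7g against the same 14.3%, led by Uqcc3 at 1.27 ± 0.26 (limma, adjusted p = 0.111). Of 21 assembly factors of complexes IV and V, 4 had one, again beside 14.3%, led by Tmem70, an ATP synthase assembly factor, at -1.21 ± 0.30 in Dor-7g and -1.04 ± 0.30 in DOX-7g (limma, adjusted p = 0.168 and 0.274).

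The regulators of mitochondrial biogenesis had median changes of -0.09 in DOX-7g and -0.01 in Dor-7g, with 0 and 1 of 13 tested at an unadjusted p under 0.05, beside 11.0% and 14.3% of all genes tested. Nrf1, whose site was searched above, had changes of 0.20 and -0.09, and the coactivator gene Ppargc1a was below the array median on all 6 arrays. Of 16 tricarboxylic acid cycle genes, 1 had an unadjusted p under 0.05 in DOX-7g and 5 in Dor-7g, beside the same 11.0% and 14.3%, led by citrate synthase, Cs, at -0.68 ± 0.18 in Dor-7g (SE, n = 2 each; limma, adjusted p = 0.177). The 7 carrier and porin genes had medians of -0.22 in DOX-7g and -0.07 in Dor-7g, and none of them had an unadjusted p under 0.05 in any comparison.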

How the data were processed

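The deposited table holds log2 expression values per probeset of 6 arrays (Mouse Gene 2.0 ST), and the submitters' processing notes name Partek 6.6 and RMA without settings. RMA is a background correction, normalization and probe summary that gives log2 values. No detection calls were used.

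Groups and replicate numbers came from the sample titles. Probesets were named by the platform annotation (23521 with 1 symbol, 1814 with several, 16010 not named here). The brightest probeset stood for a gene, and 14020 genes with at least 2 arrays at or above the array median were tested. All 6 arrays were fitted in limma 3.58.1 (R 4.3.3) with lmFit and eBayes, 1 mean per group and no block (3 residual and 2.81 prior degrees of freedom), with Benjamini-Hochberg adjustment over all genes within each comparison and a threshold of 0.05. The code was tested on simulated data. The number of arrays limits the precision.

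The members and lists were chosen with earlier results of these data known. Genes named are members past the threshold, per complex the brightest member and the largest change per comparison, the isoforms, their counterparts, subunit c genes, complex I core subunits, and the smallest p of each companion list. Other members, Nrf1, Ppargc1a and marker genes were named after their values were seen. Promoters came from a RefSeq table of GRCm38.p6 and were read with Python 3.11.15.

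Replicate numbers were not used to pair the arrays, since the labels do not state a pairing. Across genes tested, deviations from the group means correlated at -0.14 between DOX-7g and Dor-7g, -0.01 between DOX-7g and D4-act-7g, and -0.02 between Dor-7g and D4-act-7g. Such values cannot exclude a pairing or a shared batch that affects some genes. Alternatives changed the scaling, the filter, the variance model, weights, blocks, the arrays fitted, probeset and symbol rules, the threshold and leaving out each array.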

Additional observations from a re-analysis of the deposited data

Results flagged for a closer look

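The changes of 2 members against D4-act-7g differed between both kinds of dormant blastocyst, tested as the difference between DOX-7g and Dor-7g. For Cox6a2 the changes were 1.67 in DOX-7g and -1.79 in Dor-7g, a difference of 3.46 (limma, adjusted p = 0.0353, n = 2 arrays per group), with both DOX-7g arrays above and both Dor-7g arrays below the D4-act-7g arrays. For Cox8b they were 0.06 in DOX-7g and 4.30 in Dor-7g, a difference of -4.23 (limma, adjusted p = 0.0337), with both Dor-7g arrays above all others. Cox8b was at or above the array median on 3 of 6 arrays, both of Dor-7g and DOX-7g replicate 2, and the 4 arrays outside Dor-7g were near the median. It passed the filter on dim genes through the group in which it is high, so its call is a description and not independent support.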

How the results depend on the processing

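The scaling shifted all genes: the median change over all genes tested was 0.061, 0.015 and -0.067 in Dor-7g versus D4-act-7g, and -0.108, -0.05 and 0.023 in DOX-7g versus Dor-7g, as deposited, after a second quantile normalization and after centring each array. The second quantile normalization left 0 members past the threshold in all 3 comparisons. It gave medians in Dor-7g versus D4-act-7g of 0.033 over all members, 0.108 for complex I, -0.227 for III, 0.019 for IV and 0.026 for V, in DOX-7g versus D4-act-7g of 0.032 over all members, 0.048 for I, -0.082 for III and -0.007 for V, and in DOX-7g versus Dor-7g of 0.008 over all members, -0.065 for I, 0.196 for III and 0.048 for IV. Centring gave 2 members in Dor-7g versus D4-act-7g and 0 in DOX-7g versus D4-act-7g, with medians in the first of -0.15 over all members, -0.137 for I, -0.447 for III, -0.075 for IV and -0.157 for V. In DOX-7g versus Dor-7g centring gave 0.203 over all members, 0.196 for I, 0.509 for III, 0.203 for IV and 0.16 for V. The cause of these differences was not tested.

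Requiring all 6 arrays at or above the median, which drops Cox8b, left 0 members in Dor-7g versus D4-act-7g and 1 in DOX-7g versus Dor-7g, with 68 genes in all in DOX-7g versus D4-act-7g and 81 in DOX-7g versus Dor-7g. Array weights gave 1 member in DOX-7g versus Dor-7g, and 461 genes in all in DOX-7g versus D4-act-7g, 79 in Dor-7g versus D4-act-7g and 104 in DOX-7g versus Dor-7g. The replicate block left 0 members in each comparison and 82 genes in all in Dor-7g versus D4-act-7g, though the labels do not say whether the numbers pair the arrays. Crossing the numbers in that block, chosen after seeing the data, gave 0 members in DOX-7g versus D4-act-7g and 1 in DOX-7g versus Dor-7g. Fits on the arrays of 2 groups, with fewer arrays for the spread, gave 0 members in Dor-7g versus D4-act-7g and in DOX-7g versus Dor-7g, and 296 genes in all in DOX-7g versus D4-act-7g, 86 in Dor-7g versus D4-act-7g and 86 in DOX-7g versus Dor-7g. A threshold of 0.1 gave 2 members among 319 genes in Dor-7g versus D4-act-7g and 244 genes in DOX-7g versus D4-act-7g. The mean of all probesets gave complex IV 0.095 in DOX-7g and 0.012 in Dor-7g against D4-act-7g, and complex V 0.055 in DOX-7g versus Dor-7g. In Dor-7g versus D4-act-7g complex IV had 0.08 with Ndufa4 moved to complex I and -0.017 without the isoforms. Of 1662 values of single named genes and settings, 1505 kept their direction or size and their side of the threshold, 30 lost it, 12 gained it, 115 moved and 0 reversed.

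Leaving out 1 array at a time gave 0 to 1 members in DOX-7g versus D4-act-7g, 0 to 6 in Dor-7g versus D4-act-7g and 0 to 8 in DOX-7g versus Dor-7g, and 43 to 296, 11 to 1172 and 67 to 880 genes in all. The members' median ranged from 0.033 to 0.065, -0.06 to -0.009 and 0.056 to 0.11. In DOX-7g versus D4-act-7g medians ranged from 0.05 to 0.085 for complex I, -0.076 to 0.001 for III and 0.053 to 0.136 for IV. In Dor-7g versus D4-act-7g they ranged from -0.009 to 0.047 for I, -0.078 to 0.622 for II, 0.021 to 0.053 for IV and -0.08 to -0.012 for V. In DOX-7g versus Dor-7g they ranged from 0.04 to 0.097 for I, -0.671 to 0.018 for II, 0.32 to 0.378 for III, 0.056 to 0.137 for IV and 0.023 to 0.143 for V.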
